A study of Arabidopsis thaliana with 6 samples.

Results

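Photorespiration was followed through 10 genes of Arabidopsis thaliana roots, picked by locus as the enzymes of the pathway: PGLP1, GOX1, GOX2, GGT1, AGT1, GLDP1, GLDT, SHM1, HPR1 and GLYK. All 10 were on the array, with 21 of its 37118 transcript models, among 32627 loci in all. Of the 10 loci, 4 had 1 model and 6 had several. Where a gene had several models, the brightest on average stands for it unless another is named.

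Plants were 12 days old and had grown on diluted Murashige and Skoog medium, a standard mineral medium for plant culture. Shoots of both groups received white light (75 µmol of photons per square metre and second). The roots were lit as well in the light-grown group, which the labels treat as the control, and were kept in darkness in the dark-grown group. Each group had 3 one-colour NimbleGen arrays of total root RNA, one per independent culture plate, and the labels name no ecotype, mutation or transgene.

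Photorespiration begins when Rubisco, the carbon-fixing enzyme, takes oxygen in place of carbon dioxide and makes phosphoglycolate, which inhibits other enzymes. The pathway turns it back into phosphoglycerate through plastids, peroxisomes and mitochondria, and releases carbon dioxide and ammonia on the way. It is known mostly from illuminated leaves. In tissues without photosynthesis, glycine decarboxylase and serine hydroxymethyltransferase also serve the supply of serine, glycine and one-carbon units.

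Values are deposited log2 levels that run from 4.70 to 15.92, with the same distribution on each array. The level of one probe set cannot be compared with that of another, and what is set side by side for different genes is the difference between light and dark. Correlations between arrays across models ran from 0.9885 to 0.9954 within a group and from 0.9807 to 0.9892 between groups. Levels of the 11 root markers averaged 13.9 to 14.0 on the dark arrays and 13.8 on each light array. Of the 11, limma called 0, beside 5.65% of all models. At an unadjusted p under 0.05 in limma, 0 were higher and 2 lower, beside 3338 higher and 4518 lower of all 37118 models. The 2 were SCR of the endodermis and quiescent centre (-0.34) and SHR of the stele (-0.25). Every light array lay below every dark array in 4 of the 11 and above in 0, beside 16.4% and 12% of all models. The endodermal gene CASP1 (15.83 in dark, 15.80 in light) and the root beta-glucosidase gene PYK10 (15.89 and 15.88) were near the top of the scale. The 13 shoot markers averaged 7.73 to 7.91 on the dark arrays and 7.72 to 7.97 on the light arrays, so the ranges overlapped. Of the 13, limma called 1 higher and 1 lower, beside 3.22% and 2.43% of all models, and 11 did not pass. The shoot meristem gene KNAT1 rose by 1.13 (limma adjusted p = 0.0147) and the shoot meristem gene STM fell by 0.84 (limma adjusted p = 0.0202). STM lay low on the scale, at 7.34 in dark and 6.49 in light. Every light array lay above every dark array in 2 of the 13 and below in 1, beside 12% and 16.4% of all models. In bulk RNA, fewer cells of a type and less RNA per cell cannot be told apart.

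Of the 10 photorespiration genes, 1 rose in light-grown roots, 1 fell and 8 did not pass the test, which was limma's across all models with Benjamini-Hochberg adjustment and a threshold of 0.05. HPR1, the peroxisomal hydroxypyruvate reductase, rose 2.59-fold. AGT1, the peroxisomal serine:glyoxylate aminotransferase, fell, with dark-grown roots 1.50-fold above light-grown roots. Over all models, 5.65% were called (5.73% with 1 model per locus), 3.22% higher and 2.43% lower, and nothing about the pathway as a whole is read from 2 calls among 10 genes. The median difference of the 10 genes was -0.03 on the log2 scale, against -0.02 over all models. In 3 genes every light array lay above every dark array and in 3 every light array lay below, while 4 overlapped. The groups were separate in 28.4% of all models, 12% with light above and 16.4% with light below.

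**Figure D1:**
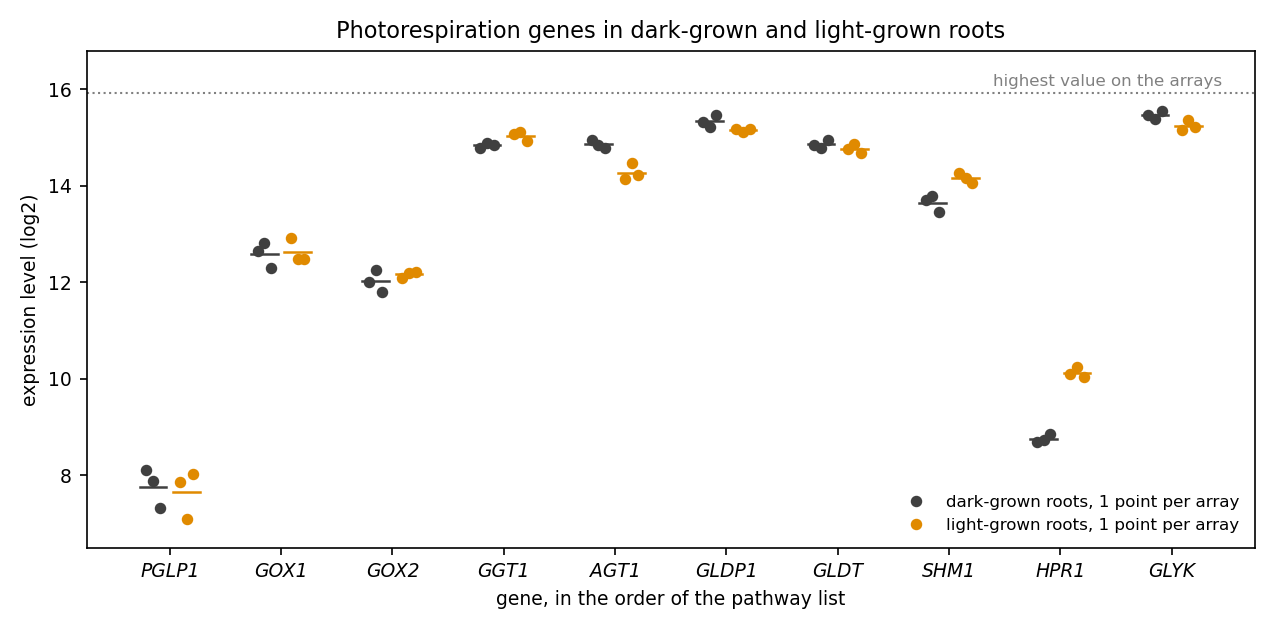
Levels (log2, vertical axis) of the 10 photorespiration genes on each array, with 1 point per array, a bar at the mean of each group of 3, and a dotted line at the highest value on the arrays, 15.92. HPR1 shows the widest gap between groups, AGT1 lies lower in light, and GLDP1 and GLYK lie close under the dotted line in both groups.

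The first enzyme of the pathway is the plastid phosphoglycolate phosphatase. PGLP1 (AT5G36700) read 8.11, 7.88 and 7.32 in dark and 7.87, 7.09 and 8.02 in light. The groups overlapped. The difference was -0.11 (SE 0.32), with a 95% interval from -0.89 to 0.67, which includes changes from 1.85-fold down to 1.59-fold up. The other 2 models of PGLP1 had lower means (6.90 and 7.08) and differed by 0.12 and 0.28, also without passing. AT5G36790, a locus listed beside PGLP1 as a possible near-identical copy, read 7.11 ± 0.21 in dark and 7.10 ± 0.40 in light (SD, n = 3). Probes of these loci may read each other's transcripts.

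Glycolate then goes to the peroxisome, where glycolate oxidase makes glyoxylate and hydrogen peroxide. GOX1 (AT3G14420) read 12.66, 12.82 and 12.30 in dark and 12.91, 12.48 and 12.49 in light. The arrays of the 2 groups were interleaved, and the difference of 0.03 (SE 0.18) lay within the spread of either group. GOX2 (AT3G14415) read 12.01, 12.26 and 11.80 in dark and 12.10, 12.19 and 12.22 in light, a difference of 0.15 (SE 0.13) with overlapping groups. The genes are neighbours with 0 annotated genes between them, and cross-reading of their probes was not tested. Dark replicate 3 was the lowest dark array for both.

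The 6 models of GOX1 did not move alike. Their differences ran from -0.39 to 0.24, with light above dark in 2 models, below in 1 and overlapping in 3, and none passed. The model numbered 6 had a mean of 7.56 in dark-grown and 7.17 in light-grown roots (SD 0.10 and 0.20, n = 3), and had the lowest adjusted p of the 6, 0.150 in limma. The model numbered 2 differed by 0.24 (adjusted p = 0.234 in limma).

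Glyoxylate is converted to glycine by aminotransferases. GGT1 (AT1G23310), which takes the amino group from glutamate, read 14.78, 14.89 and 14.85 in dark and 15.07, 15.12 and 14.94 in light. Every light array was above every dark array, yet the difference of 0.20 (SE 0.08) missed the threshold (adjusted p = 0.232 in limma). The second GGT1 model differed by 0.11 with overlapping groups. In light GGT1 was within 1 of the top of the scale.

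The aminotransferase AGT1 takes the amino group from serine and so links glycine formation to hydroxypyruvate formation. AGT1 (AT2G13360) read 14.96, 14.84 and 14.78 in dark and 14.14, 14.47 and 14.22 in light. All 3 light arrays were below all 3 dark arrays, and AGT1 fell by 0.58 (SE 0.11, 95% interval from -0.86 to -0.30, adjusted p = 0.0446 in limma). Among all models, 4.6% had a difference at least as low, and of the 10747 models within 1 of its mean level 3.64% passed. Without any 1 array the difference stayed between -0.68 and -0.52, but the call was lost in most of these fits: the adjusted p in limma was 0.156, 0.146 and 0.108 without dark replicates 1, 2 and 3, and 0.108 and 0.110 without light replicates 1 and 3. Without light replicate 2 it still passed (0.0465). Over 15 alternative settings, these fits included, 8 kept the call of AGT1 and 7 lost it. Among the 8, renormalization and median centring moved no value and so test nothing. Averaging over the models of a locus could not change the values of AGT1, which has 1 model.

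The reductase HPR1 reduces hydroxypyruvate to glycerate. HPR1 (AT1G68010) read 8.69, 8.73 and 8.85 in dark and 10.11, 10.25 and 10.03 in light. The lowest light array was more than 1 above the highest dark array, and the spread within each group was small (SD 0.08 and 0.11, n = 3). HPR1 rose by 1.37 (SE 0.09, 95% interval from 1.15 to 1.60, adjusted p = 0.00191 in limma), which is 2.59-fold with an interval from 2.21 to 3.03. A difference at least as high was found in 480 models, or 1.29% of all. Calls were frequent near its level, at 12% of 3793 models. Leaving out any 1 array kept the adjusted p between 0.00682 and 0.0151.

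**Figure D2:**
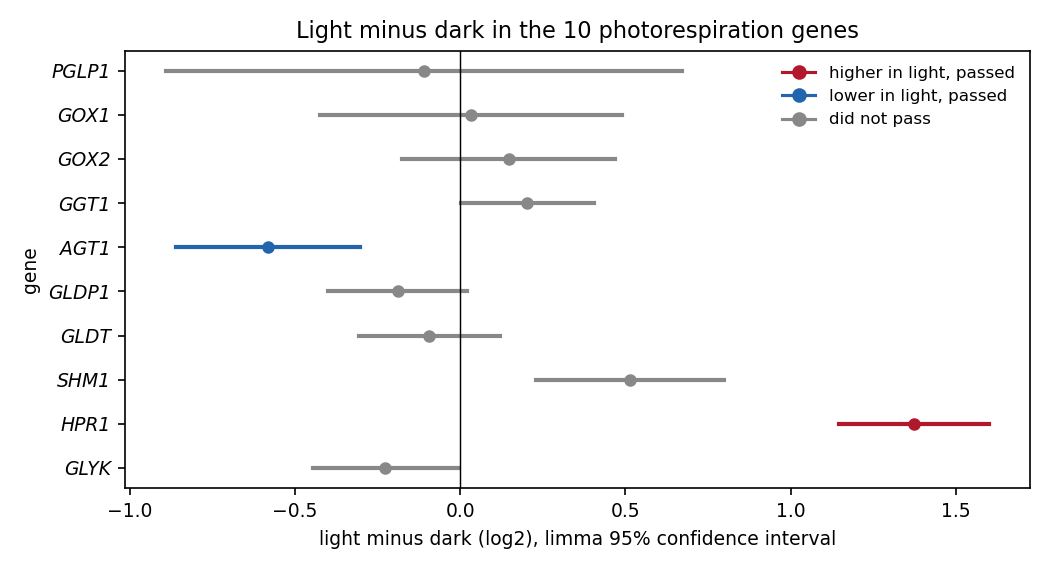
Light minus dark (log2, horizontal axis) for the 10 photorespiration genes, with limma's 95% confidence interval and colour by the test. HPR1 at 1.37 and AGT1 at -0.58 passed, SHM1 at 0.51 has an interval clear of 0 without passing after adjustment, and PGLP1 has the widest interval.

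In mitochondria, glycine decarboxylase and serine hydroxymethyltransferase join a pair of glycine molecules into one serine. GLDP1 (AT4G33010), the P protein that removes carbon dioxide from glycine, read 15.33, 15.23 and 15.46 in dark and 15.17, 15.11 and 15.17 in light. Every light array lay below every dark array, with a difference of -0.19 (SE 0.09, adjusted p = 0.282 in limma), and the second model of GLDP1 differed by -0.18. GLDT (AT1G11860), the T protein that passes the one-carbon unit to tetrahydrofolate, read 14.85, 14.79 and 14.96 in dark and 14.76, 14.87 and 14.69 in light. Its groups overlapped, with a difference of -0.09 (SE 0.09) and a 95% interval from -0.31 to 0.12.

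SHM1 (AT4G37930), which makes serine, read 13.71, 13.79 and 13.46 in dark and 14.27, 14.17 and 14.06 in light. Every light array was above every dark array. The difference of 0.51 (SE 0.12, 95% interval from 0.23 to 0.80) missed the threshold at adjusted p = 0.0669 in limma. It passed in 3 of 15 alternative settings. A trend and robust variance prior gave an adjusted p of 0.0129 in limma. Removal of the models under the 25th percentile gave 0.0366, and of those under the median 0.0148. Without any 1 array SHM1 did not pass, with an adjusted p in limma between 0.0989 and 0.173. Of all models, 5.74% had a difference at least as high.

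The last enzyme, the plastid glycerate kinase GLYK (AT1G80380), read 15.47, 15.39 and 15.55 in dark and 15.16, 15.36 and 15.21 in light. Light lay below dark in both of its models, with differences of -0.23 (SE 0.09) and -0.18 (SE 0.07), each with adjusted p = 0.224 in limma. Both calls were in the 5 peroxisomal genes. With 3 mitochondrial and 2 plastid genes, and 5.65% of all models called, nothing is read from this about compartments.

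Several of these genes sit near the top of the scale, where differences were small. GLDP1 and GLYK were within 1 of the highest value in both groups, and GGT1 in light. GLDT lay 1.05 below it in dark and AGT1 lay 1.06 below it in dark. Of the 4535 models within 1 of the top in both groups, 0.353% passed, against 6.39% of the other 32583, and their median SD within a group was 0.07 against 0.19. That class leaves out differences above 1 by its definition, so its low share is partly set in advance. Of the models within 1 of the mean level of GLDP1, 2.39% passed, and for GLYK 2.19%, beside 5.65% of all models. Whether the array was saturated near the top was not tested.

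**Figure D3:**
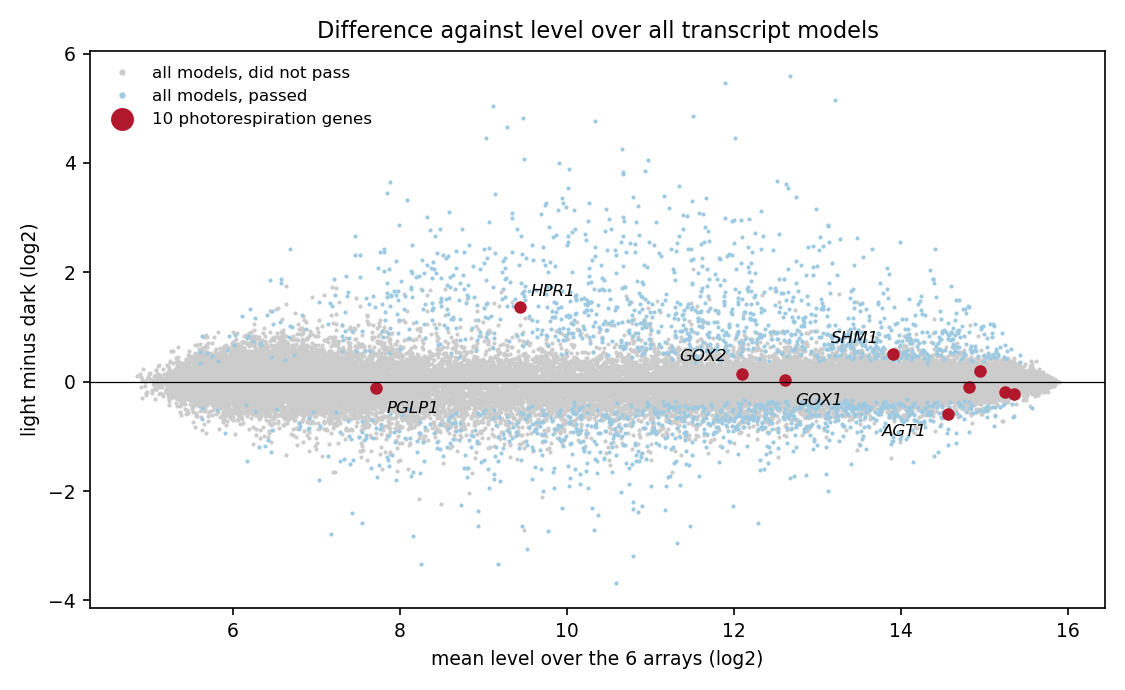
Light minus dark (log2, vertical axis) against the mean level over the 6 arrays (log2, horizontal axis) for all 37118 models, with the photorespiration genes as large points. The cloud narrows towards the top of the scale, where GGT1, GLDT, GLDP1 and GLYK lie (unlabelled points), and HPR1 stands above the bulk of models at its level.

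Arrays also differed among members within a group. Dark replicate 3 was the lowest dark array for 5 of the 10 genes and the highest for 4. Light replicate 3 was the lowest light array for 4 and the highest for 2, not counting a tie for highest in GLDP1. The mean over the 10 genes ran from 12.93 to 13.06 on the dark arrays and from 13.11 to 13.16 on the light arrays. HPR1 had the largest single difference among them, 1.37. The mean difference of the 10 genes was 0.11 and the median -0.03, so no shift of the set is read from these means.

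The partners of the pathway were 15 genes for the remaining subunits of glycine decarboxylase, the recapture of ammonia, transport and peroxisomal support. Of these, 3 rose, 0 fell and 12 did not pass, beside 3.22% of all models higher and 2.43% lower, and their median difference was 0.03. At an unadjusted p under 0.05, 4 were higher and 0 lower in limma, beside 3338 higher and 4518 lower of all 37118 models. GLDH1, an H protein of glycine decarboxylase that carries the intermediate between the other subunits, read 10.27, 10.41 and 10.25 in dark and 11.21, 11.43 and 11.43 in light. All light arrays were above all dark arrays, and GLDH1 rose by 1.05 (SE 0.10, adjusted p = 0.00497 in limma).

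AT1G32470, listed as a further H protein gene although the RefSeq table gives it no symbol, read 9.30, 9.65 and 9.13 in dark and 10.60, 10.81 and 11.19 in light. It rose by 1.51 (SE 0.20, adjusted p = 0.0157 in limma), with groups far apart and light replicate 3 the highest. The call was lost without dark replicate 1, dark replicate 3 or light replicate 2 (adjusted p = 0.0742, 0.0625 and 0.0634). The third gene listed for that subunit, AT2G35120, read 15.49 ± 0.06 in dark and 15.52 ± 0.07 in light (SD, n = 3) and lay within 1 of the top. The genes mtLPD1 and mtLPD2 for the L protein, which reoxidises the H protein, also lay there and differed by -0.04 and 0.04.

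GLU1, the ferredoxin-dependent glutamate synthase that takes part in recapturing photorespiratory ammonia, read 9.74, 9.17 and 9.25 in dark and 10.55, 10.66 and 10.58 in light. GLU1 rose by 1.21 (SE 0.16, adjusted p = 0.0159 in limma), with dark replicate 1 above the other 2 dark arrays and still below every light array. Without dark replicate 2 or 3, or light replicate 1 or 2, the adjusted p was 0.0583, 0.0681, 0.0559 and 0.0687. Plastid glutamine synthetase GLN2, which acts before GLU1, was within 1 of the top in both groups and differed by 0.04 (SE 0.07).

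LrgB, a plastid envelope protein known to carry glycolate and glycerate, read 5.82, 6.85 and 6.22 in dark and 7.62, 7.25 and 7.38 in light. The groups did not overlap, but the dark arrays spread by 0.52 (SD, n = 3), and the difference of 1.12 (SE 0.27) did not pass (adjusted p = 0.0822 in limma). LrgB was not followed gene by gene through the alternative settings. The plastid dicarboxylate carriers DIT1 and DIT2.1 differed by -0.05 and 0.03, and the mitochondrial carrier BOU by 0.08. Catalase CAT2, which removes the hydrogen peroxide made by glycolate oxidase, differed by -0.03 (SE 0.09), within 1 of the top in both groups. The peroxisomal malate dehydrogenases PMDH1 and PMDH2, which provide reducing power for HPR1, differed by -0.04 and -0.24. Less bright models of PMDH2 differed by -0.37, with overlapping groups, and by -0.65, with every light array below every dark array. Neither passed (adjusted p = 0.617 and 0.301 in limma).

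**Figure D4:**
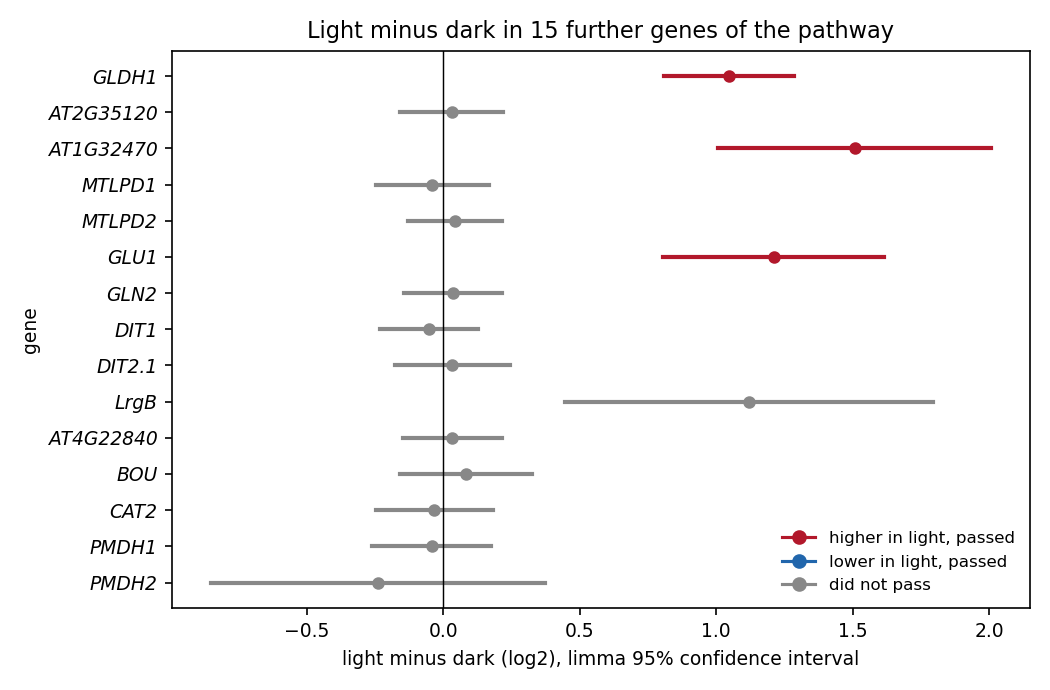
Light minus dark (log2, horizontal axis) with limma's 95% confidence interval for the 15 partner genes. GLDH1, AT1G32470 and GLU1 passed, LrgB has a wide interval above 0, and the others lie around 0.

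Paralogs give the same reactions or related ones in other compartments or organs. Limma called 0 of 19 paralogs, with a median difference of 0.01 and a range from -0.57 to 0.26. At an unadjusted p under 0.05 in limma, 1 was higher and 2 lower, beside 3338 higher and 4518 lower of all 37118 models. With 5.65% of all models called, 0 of 19 is near the share over the array. The hydroxypyruvate reductase family gene HPR3 read 11.77 ± 0.22 in dark and 11.20 ± 0.19 in light (SD, n = 3), the lowest difference of the paralogs, without passing (adjusted p = 0.104 in limma). HPR3 was singled out once the values were known. Of the 19, 9 were within 1 of the top in both groups.

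For 6 genes the difference between light and dark was compared with that of a paralog on the same arrays. An exact two-sided permutation test over the arrays was used, whose smallest possible p with 3 against 3 is 0.1, so no pair could pass. For HPR1 and AT1G79870, listed as a second hydroxypyruvate reductase gene although the RefSeq table gives it no symbol, the differences were 1.37 and -0.03. The gap between them was 1.40 (SE 0.05), with light and dark arrays far apart (exact p = 0.1, adjusted over the 6 pairs 0.2). AT1G79870 was within 1 of the top in both groups.

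The gap was 0.45 (SE 0.19) for SHM1 over SHM2, also a mitochondrial serine hydroxymethyltransferase (exact p = 0.2, adjusted 0.3), and the lowest light array equalled the highest dark array. It was 0.23 (SE 0.09) for GGT1 over GGT2 and -0.17 (SE 0.05) for GLDP1 over GLDP2, both with separate groups (exact p = 0.1, adjusted 0.2). GLDP1 and GLDP2 both lay within 1 of the top in both groups. The groups overlapped for GOX1 over GOX2 at -0.11 (SE 0.18, exact p = 0.6) and for PGLP1 over the cytosolic PGLP2 at -0.23 (SE 0.34, exact p = 0.5), each adjusted to 0.6. The paralogs GGT2, GLDP2, SHM2 and PGLP2 differed by -0.03, -0.02, 0.06 and 0.12 and did not pass.

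**Figure D5:**
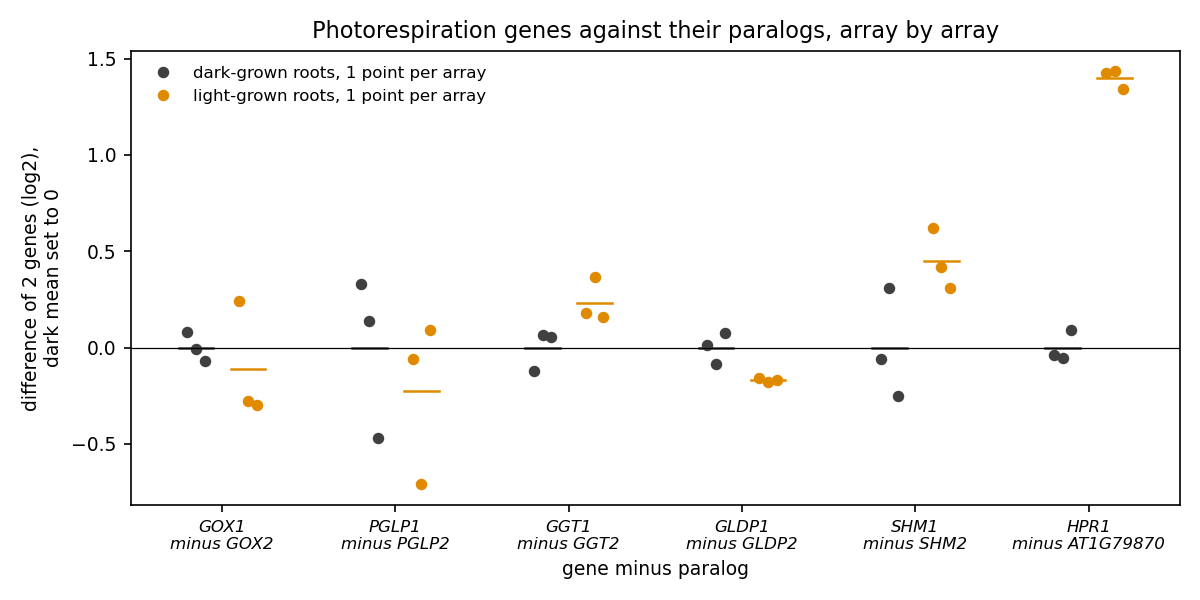
Level of each gene minus that of its paralog on the same array (log2, vertical axis), with the mean of the 3 dark arrays set to 0 and 1 point per array. HPR1 minus AT1G79870 is 1.40 higher in light, SHM1 minus SHM2 touches between groups, and GOX1 minus GOX2 and PGLP1 minus PGLP2 overlap.

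Serine can also be made from phosphoglycerate by the phosphorylated pathway, which does not need photorespiration. Limma called 0 of its 6 genes, with 0 at an unadjusted p under 0.05, and the differences ran from -0.07 to 0.19. Beside 5.65% of all models called, and 3338 higher and 4518 lower of 37118 at that unadjusted p, 0 of 6 says little. Of these genes, 3 were within 1 of the top in both groups.

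Rubisco and its activase stand upstream of the pathway. Of 6 genes 2 rose and 0 fell, beside 3.22% of all models higher and 2.43% lower: the small subunit gene RBCS1A read 10.37 ± 0.27 in dark and 12.92 ± 0.39 in light (SD, n = 3), and RCA, the activase, 12.33 ± 0.06 and 13.35 ± 0.15. RBCS3B differed by 0.67 with every light array above every dark array, without passing (adjusted p = 0.0637 in limma). RBCS1B (4.80 in dark, 4.90 in light) and RBCS2B (5.58 and 5.50) lay near the lowest value on the arrays, 4.70. The large subunit gene ATCG00490 was within 1 of the top in both groups. RBCS genes are similar to each other, so their probes may not be specific. Among 6 regulators of greening 4 rose and 0 fell, beside the same shares. These were HYH (2.11), HY5 (1.07), CGA1 (1.13) and GNC (1.34). GLK1 and GLK2, transcription factors that act on nuclear photosynthesis genes, read 8.92 ± 0.31 and 8.88 ± 0.19 in dark and 8.31 ± 0.04 and 8.62 ± 0.43 in light (SD, n = 3), without passing (adjusted p = 0.0992 and 0.628 in limma). Their part in the levels of HPR1 or its partners was not tested.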

How the data were processed

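The authors deposited log2 expression values for 37118 transcript models on 6 arrays. Ranked from lowest to highest, the arrays' values differed by at most 0.01, as quantile normalization before deposit leaves them. They were used as given. Per the submitters' processing notes, limma was used, with no version. For background correction, probe summary and annotation release, the method is not given in the sources at hand. There are no detection calls, and array values have no read depth, so the 3 arrays per group limit the precision.

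The 2 groups were compared by lmFit and eBayes of limma 3.58.1 (R 4.3.3) without a covariate, with Benjamini-Hochberg adjustment over all models. SE and 95% intervals are limma's moderated ones, except for paralog pairs, where the SE comes from the arrays. "Near the top" means within 1 of the highest value. The fit was tested on simulated data.

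Genes named were the 10 members, partners and paralogs that passed, the paralogs in the pairs, and up to 3 passing genes of each other list. Others (non-passing partners, HPR3, CASP1, PYK10, SCR, SHR, RBCS1B, RBCS2B, RBCS3B, ATCG00490, GLK1, GLK2 and GNC) were added after their values were seen. AT5G36790, a paralog that did not pass and is in no pair, also lies outside this rule. All are in the lists. The members and the 8 lists (86 genes, all on the array) were chosen with earlier results of these data known. Of the 86 loci, 85 were in the TAIR10.1 RefSeq gene table, used for names. Alternatives were a replicate block, leaving out each array, renormalization, median centring, 2 signal filters, a trend and robust prior, array weights, the mean of a locus's models and a threshold of 0.01. Plots were made in Python 3.11.15 with matplotlib 3.10.9.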

Additional observations from a re-analysis of the deposited data

How the results depend on the processing

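Of 18 genes followed, 5 passed, and HPR1 and GLDH1 kept their call under every alternative that included them. Among the followed genes that did not pass, SHM1 alone passed under an alternative. Photorespiration genes higher numbered 2 with models below the 25th percentile removed and 2 with a trend and robust prior. With models below the median removed HPR1 is itself taken out, and the 1 higher gene is SHM1. The number lower was 0 with a replicate block, 0 at a threshold of 0.01 and 0 to 1 without any 1 array. Partners higher numbered 1 with the block, 1 at a threshold of 0.01, 1 to 3 without any 1 array, and 0 with models below the median removed, a filter that takes out all 3 called genes. They numbered 4 with the trend and robust prior, so a partner outside the 18 followed genes also passed there. With the block, adjusted p was 0.112 for AGT1, 0.0699 for AT1G32470 and 0.0654 for GLU1. For paralog pairs a block cannot move the gap (1.40 for HPR1). The exact p became 0.25, the smallest that 3 pairs allow, for the pairs of HPR1, GGT1, GLDP1 and SHM1, 0.5 for GOX1 and 0.75 for PGLP1. Over all models, 668 were higher and 290 lower with the block, 1852 and 1879 with the trend and robust prior, and 491 and 115 at a threshold of 0.01. Leaving out single arrays gave 607 to 905 higher models and 158 to 473 lower ones. The signal filters gave 1588 higher and 1627 lower models at the 25th percentile and 1314 and 1596 at the median, so that lower models outnumbered higher ones. Same-numbered arrays of the groups had residual correlations of 0.01, 0.06 and 0.41, and differently numbered ones ran from -0.40 to 0.36. With so few arrays, these values do not settle whether the arrays were paired. The labels give no pairing, so the numbers were not used as pairs.

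Directions that turned belonged to genes near 0 that did not pass: without any 1 array PGLP1 ran from -0.34 to 0.18, GOX1 from -0.11 to 0.15, GGT2 from -0.072 to 0.0017, SHM2 from -0.023 to 0.12 and the gap of PGLP1 over PGLP2 from -0.46 to 0.015. With the mean of all models of a locus PGLP1 was at 0.10 and GOX1 at -0.0017. Quantile normalization and median centring moved no value, since the arrays already shared a distribution, and so test nothing. The cause of the other changes was not tested.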
